A study of Mus musculus with 9 samples.

Results

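Mouse embryonic stem (ES) cells at day 0 were compared with the motor neuron cultures made from them by day 5. The comparison used 6 of the 9 expression arrays of the series, 3 for each group, and took in every probe set that the array's annotation ties to a gene: 34958 of 45101 probe sets name 1 symbol, and together they cover 18193 genes. Each group was of the Ainv15 line, an ES line in which doxycycline can switch on a Cdx2 construct with a V5 tag, so the ES controls carry this construct too. The day 0 group had no treatment; ES cells were kept with LIF on a layer of fibroblasts stopped with mitomycin C. For the day 5 group the cells were grown as embryoid bodies, floating aggregates, and were given 1 µM retinoic acid (all-trans) and 0.5 µM of an agonist of hedgehog signalling on day 2. The protocol also speaks of 100 nM of each later on, without saying for which cultures. The remaining 3 arrays are of cultures that in addition had doxycycline and basic FGF; they entered here through the estimate of spread, the filter on low values and the choice of each gene's probe set, but in no comparison. The labels do not say that the arrays of a group came from separate cultures, so the p-values measure how these arrays scatter, and that scatter could be technical. Only 1 cell line was used.

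ES cells are held in the pluripotent state by a circuit of transcription factors around Oct4 (Pou5f1), Sox2 and Nanog, supported by LIF, and exit from it is the first step of differentiation. Retinoic acid gives neural cells a hindbrain and spinal cord identity through nuclear receptors that bind DNA, and Sonic hedgehog patterns the ventral neural tube. Progenitors that express Olig2 then leave the cell cycle through proneural factors and become motor neurons, which use acetylcholine and are marked by Mnx1, Isl1 and Lhx3.

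Values are GCRMA levels on the log2 scale, between a floor of 2.165 (printed as 2.17) and 16.12, so that 1 unit is a doubling and floor values have no order. A gene's level is that of its brightest probe set over the 9 arrays, and 10911 genes exceeded 4 on at least 3 arrays and were tested with limma. A gene at the floor on all arrays of 1 group passed this filter through other arrays and could be called only 1 way. Counts of lists with most members at the floor in 1 group are partly fixed by this. Calls needed an adjusted p under 0.05 and a log2 difference of at least 1 in size; every difference is motor neuron cultures minus ES cells. Where arrays of the dimmer group lay under 4, they were raised to 4 for the fold, which is then written as "at least". Replicate ES arrays were less alike than replicate motor neuron arrays: correlations ran from 0.948 to 0.955 against 0.988 to 0.993, and the median SD of a tested gene was 0.377 against 0.149. The fit used 1 spread over all 3 groups, and the group outside the comparison had a median SD of 0.114. P-values can therefore be too small for genes that vary among the ES arrays. From 43.5% to 45% of probe sets exceeded 4 on each of the 6 arrays.

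The groups also differed in control probe sets for RNA amplification. The 3′ minus 5′ difference of the transferrin receptor (Tfrc) controls came to 6.31, 6.86 and 5.59 in ES cells but to -1.39, -1.57 and -1.53 at day 5, and that of the actin (Actb) controls was 1.87 to 2.30 against -0.05 to -0.03. The 18S ribosomal RNA control read 5.86 to 6.60 on ES arrays and 15.45 to 15.51 on the others. Amplification and group cannot be told apart in this design. Genes whose tested probe sets all moved the same way are therefore given first. Where these probe sets lie along the transcript was not examined, so agreement need not guard against the amplification difference.

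A large share of the tested genes differed in each direction. Of the 10911 genes, 2826 (25.9%) were called higher and 3346 (30.7%) lower in motor neuron cultures, or 56.6% in all. The median difference over all genes was -0.08. This balance depends on scaling and on the probe sets used: 45.8% of called genes were higher as deposited. Centring each array on its median over all probe sets gave 3657 higher and 2604 lower (58.4% higher, with the median moved to 0.35). Centring on the tested probe sets, chosen after seeing the data, gave 2657 and 3538 (42.9%, median -0.19). Averaging each gene's tested probe sets gave 3371 and 2896 (53.8%, median 0.12). In 7 called higher and 40 called lower genes the dimmer group held 1 identical value above 4 on its 3 arrays; no fold is given for these.

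At least 2 probe sets were tested for 5175 genes. All of them were called higher in 837 genes (16.2%) and all lower in 552 (10.7%); these are called agreeing genes below. Probe sets of 783 genes (15.1%) were called in opposite directions, and 829 genes (16%) had none called. Of the genes called higher by their brightest probe set with at least 2 tested, 837 of 1274 (65.7%) agreed and 110 (8.63%) were opposed. Of those called lower, 552 of 1536 (35.9%) agreed and 505 (32.9%) were opposed. The difference between these shares was not tested, nor was the part of amplification in it.

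**Figure D1:**
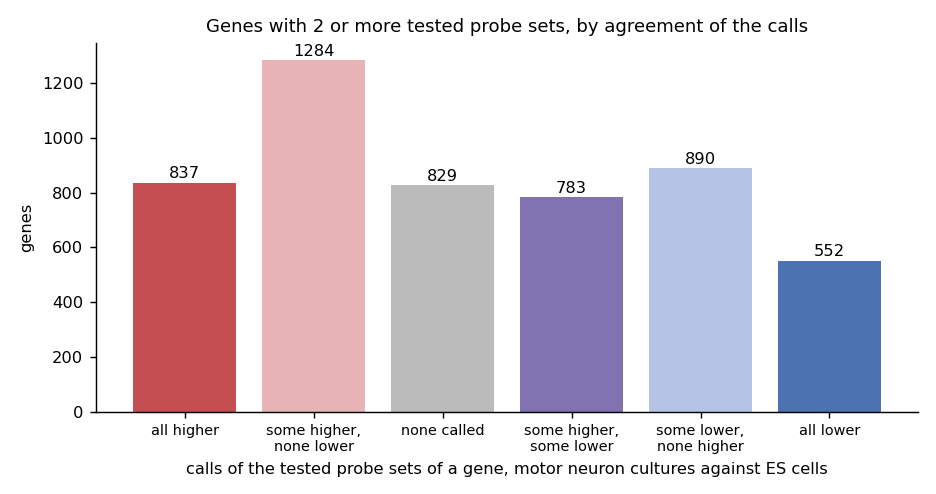
Number of genes (vertical axis) with 2 or more tested probe sets, by how the calls of their probe sets combined; each bar is 1 class of the 5175 genes. All tested probe sets were called higher in 837 genes and lower in 552, and 783 genes had probe sets called both ways.

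The agreeing genes were ranked by their least changed probe set, and those that rose furthest are given first. Isl1, a LIM homeodomain factor of motor neurons, read 4.23, 4.84 and 5.38 in ES cells but 12.77, 12.36 and 12.37 at day 5. The groups lay far apart, and the rise was 206-fold (log2 difference 7.68, SE 0.29, adjusted p = 1.94e-08) in the weaker of its 2 probe sets. Neurod4, a proneural bHLH factor, went from 3.54, 3.72 and 3.54 to 12.91, 12.91 and 13.12, at least 506-fold higher and at least 203-fold in its weaker probe set. Doublecortin (Dcx), a microtubule protein of migrating neurons, rose in all 4 of its probe sets, by at least 148-fold in the weakest. Hoxa5 rose by at least 208-fold in its weaker probe set and Hes5, a Notch target of neural progenitors, by at least 89-fold. Also among the 12 highest were Zfp503 (at least 117-fold in the weaker probe set), the tubulin acetyltransferase gene Atat1 (at least 83.5-fold) and Kbtbd11 (at least 321-fold), which read 4.97, 2.31 and 2.31 on the ES arrays.

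For Hoxb3, Elavl4 and Dtx4, also among the 12, leaving out 1 ES array moved the fold by more than 1.5 times. Hoxb3 read 2.55, 6.21 and 4.32 there and 11.77 to 12.21 in motor neuron cultures, at least 144-fold higher and at least 231-fold without ES replicate 2. Elavl4, which encodes a neuronal RNA-binding protein, was 119-fold higher (65.3-fold without ES replicate 2 and 192-fold without ES replicate 3). Dtx4 was 183-fold higher, with 288-fold and 116-fold under the same omissions.

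Among the agreeing genes that fell furthest were regulators and products of the pluripotent state. Fgf4, the growth factor that ES cells make for themselves, read 14.05, 14.05 and 13.92 on the ES arrays and the floor on every motor neuron array, a fall of at least 1030-fold that was at least 485-fold in the weakest of 3 probe sets. Tbx3 fell at least 160-fold in its weaker probe set, Klf4 at least 115-fold and Dppa2 at least 103-fold, all 3 being pluripotency factors. The phospholipase gene Pla2g1b fell by at least 162-fold in its weaker probe set, the amino acid transporter gene Slc38a4 by at least 127-fold, the small heat shock protein gene Hspb1 by at least 116-fold, the zinc finger gene Zfp982 by at least 115-fold and the collagen-processing gene Pcolce by at least 96.1-fold. Zic5, a zinc finger factor, was at least 93.8-fold lower in its weaker probe set. For Pdgfc, a platelet-derived growth factor, motor neuron replicate 2 stood at 6.32 while the other two arrays were at 4.31 and 4.39; the fall was 149-fold, or 235-fold without that array.

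**Figure D2:**
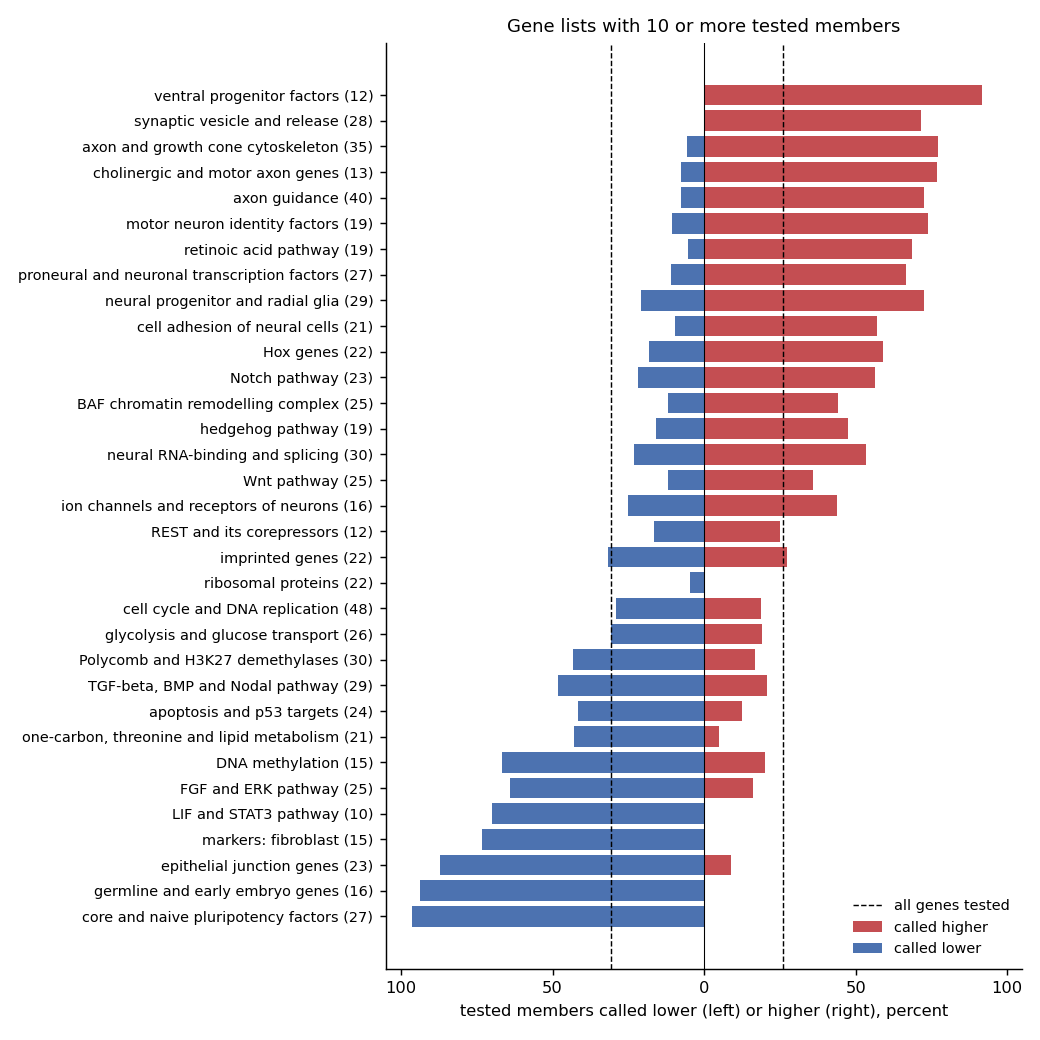
Percent of tested members called lower (bars to the left) and higher (bars to the right) in motor neuron cultures for each gene list with 10 or more tested members, whose number is in brackets. Dashed lines mark the shares over all genes tested, 30.7% lower and 25.9% higher; 96.3% of pluripotency factors lay to the left and 91.7% of ventral progenitor factors to the right.

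Pluripotency factors fell almost without exception. Of 30 listed factors 27 were tested. Of these 26 (96.3%) fell and 0 rose, against 30.7% and 25.9% of all genes. The median difference was -7.84, or -6.84 with values under 4 raised to 4. At day 5 the median level of the tested factors was 2.17 on each array. Members at the floor there could only be called lower, so the count was partly fixed by the filter. Among the 9 factors with at least 2 tested probe sets, 7 were agreeing genes. Nanog read 13.09, 13.54 and 13.73 on the ES arrays and the floor on all motor neuron arrays; the same drop to the floor was seen for Pou5f1 (13.29, 12.91 and 12.41 in ES cells), Zfp42 (12.44, 12.55 and 12.57), Tfcp2l1 (11.13, 11.98 and 11.54), Klf2 (9.65, 10.33 and 10.12) and Prdm14 (9.51, 9.33 and 10.37). No array of one group reached into the range of the other for these genes. Esrrb, an orphan nuclear receptor of naive ES cells, was at least 279-fold lower. Utf1, a chromatin-bound factor of undifferentiated cells, was at least 86-fold lower with its probe sets in agreement, and Nr5a2 at least 55.4-fold lower.

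Some members kept a signal at day 5. Sox2, which neural progenitors also use, went from 13.93, 13.84 and 13.75 to 12.14, 12.09 and 12.10, a fall of 3.32-fold (log2 difference -1.73, SE 0.08, adjusted p = 6.66e-08). Sall4 stood at 14.31, 14.18 and 14.51 and then at 9.82, 10.25 and 10.78; its second probe set, from 8.34 to 7.24 on average, was not called. Dppa5a fell 202-fold, from 14.82 or more on each ES array to between 7.05 and 7.49, and Nr0b1 71.5-fold to between 5.10 and 6.36. Lin28a, an RNA-binding protein that blocks let-7, was the tested member without a call. Its brighter-by-mean probe set went from 12.60 to 12.06, while the other was called lower, from 13.13 to 10.63.

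The start of the Nanog gene is shown because it holds the composite element of the Oct4 and Sox2 pair, 2 factors of this list. The 100 bases just upstream of the Nanog start at chr6:122707389-122707488 (GRCm38.p6, RefSeq, plus strand, 5′ to 3′) carry the element in capitals, 61 bases before the start:
Nanog: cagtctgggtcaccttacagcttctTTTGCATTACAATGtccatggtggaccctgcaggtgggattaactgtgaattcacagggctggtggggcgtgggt
The letters searched were the half-sites CATTGT and ATGCAAA with 1 base between them, on either strand in windows of 250 bases before to 50 bases after a start. Of the 27025 genes with such a window, 1 held them (0.0037%), and 14452 of the 18193 array genes had a window. The letters were chosen with this promoter known, and a match is not a measured site.

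RNA of genes in the signals that ES cells live on was mostly lower too. In the LIF and STAT3 list 7 of 10 tested genes fell and 0 rose (median -1.81). Of the 9 with several tested probe sets, 3 agreed on a fall and 4 had probe sets called both ways. Socs3, a feedback inhibitor of STAT3, went from 12.43, 11.87 and 10.97 to 6.67, 5.97 and 7.21, 35.3-fold lower and at least 7.69-fold in the weakest of 3 agreeing probe sets. The kinase gene Pim3, a STAT3 target, was 3.71-fold lower with its probe sets in agreement. The receptor subunit genes were not so clear: the brightest Lifr probe set fell from 11.48 to 6.97, while 2 dim ones rose from 3.87 to 5.63 and from 2.17 to 3.47. For Il6st (gp130) the brightest fell from 10.96 to 9.32, another 2 rose from 2.66 to 10.09 and from 5.15 to 9.62. Averaged over its tested probe sets, it rose by 2.43 on the log2 scale. LIF itself was too dim to be tested.

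For Nodal signalling, which ES cells and the epiblast use, RNA of ligand, co-receptor and target genes was lower. Nodal went from 10.33, 9.65 and 9.94 to 2.44, 2.44 and 2.55 and was at least 62.8-fold lower (adjusted p = 6.46e-09), with at least 3.63-fold in its weaker probe set. The related ligand gene Gdf3 was at least 166-fold lower and the transcription factor gene Foxh1, which brings SMADs to DNA, at least 52.8-fold, both with agreeing probe sets. The co-receptor gene Tdgf1 fell from 13.60, 13.81 and 13.67 to the floor, and the feedback antagonists Lefty1 and Lefty2 were at least 55.1-fold and 103-fold lower. In the wider TGF-beta, BMP and Nodal list 14 of 29 tested genes were lower and 6 higher (median -0.88). Those that rose included the BMP effector gene Smad5, 11.1-fold and in agreement over 3 probe sets, and Id3, a BMP target, 11.2-fold. The inhibitory Smad7 was 8.53-fold lower in agreement. In the list of epiblast and primitive streak genes 8 of 8 tested genes fell, of 18 listed. Its median level on the motor neuron arrays was 2.84, 3.08 and 3.54. Genes under 4 there passed the filter through other arrays, which favours falls.

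The FGF and ERK list had 16 of 25 tested genes lower and 4 higher (median -2.88). Beside Fgf4, the ERK-induced members Etv5, Spry4 and Etv4 were among those that fell. Etv5, an ETS factor, went from 13.25, 13.03 and 13.15 to 3.42, 3.42 and 3.24, and its 3 probe sets agreed on a fall of at least 26.3-fold. The feedback inhibitor Spry4 was at least 75-fold lower and Etv4 at least 9.98-fold, with agreeing probe sets. Fgfr3, a receptor gene of ventricular zone progenitors, ran the other way, from 5.55, 4.78 and 4.99 to 10.30, 10.56 and 10.28, 38.6-fold higher and in agreement. Mycl rose 15.6-fold in agreement, or 8.7-fold without ES replicate 2.

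Germline and early embryo genes, many of which are silenced by DNA methylation in other cells, were lower in 15 of 16 tested genes, with a median of -5.88 (-4.67 with low values raised). The oocyte gene Ooep went from 13.85, 13.32 and 13.36 to the floor, at least 730-fold lower. The germ cell helicase gene Ddx4 fell at least 108-fold, the piRNA pathway genes Mael and Tdrd12 at least 126-fold and 112-fold, and the meiotic gene Hormad1 at least 67.8-fold. All read 2.17 or 2.18 on the motor neuron arrays. Each of the 16 genes had 1 tested probe set, so agreement could not be asked. The list's median level was 2.17 on each motor neuron array. Genes at the floor there could only be called lower, so the count was partly fixed by the filter. Stra8, the exception, lay at 5.95 to 6.43 before and 5.96 to 7.02 after.

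Epithelial junction genes fell and neural adhesion genes rose. ES cells form an epithelium held by E-cadherin, and of 23 tested junction genes 20 were lower and 2 higher (median -4.91). Cdh1, the E-cadherin gene, went from 13.05, 13.29 and 12.96 to 3.06, 2.61 and 3.34, at least 548-fold lower. Epcam was at least 445-fold lower and its 2 probe sets agreed (at least 9.8-fold in the weaker). The epithelial regulators Grhl2, a transcription factor, and Esrp1, a splicing factor, fell to the floor, by at least 328-fold and 322-fold. The claudin gene Cldn3 went against them, from 4.86, 3.38 and 2.17 to 7.53, 7.58 and 7.14 in agreement over 3 probe sets, and the laminin gene Lama1 rose 2.8-fold.

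In the neural adhesion list 12 of 21 tested genes rose and 2 fell (median 2.07). N-cadherin (Cdh2) went from 8.53, 10.08 and 10.71 to 12.12, 11.82 and 11.92. The groups did not overlap, and the rise was 4.53-fold in agreement, or 2.95-fold without ES replicate 1. Nrcam, an adhesion molecule of growing axons, was at least 106-fold higher by its brightest probe set and at least 1.56-fold in the weakest of 3 that agreed. Cadm3 was at least 39.1-fold higher and Cadm1 3.31-fold, with 3 and 4 probe sets in agreement, and Astn1, a migration receptor, at least 81.7-fold by its only tested probe set.

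Retinoic acid receptors and the proteins that bind and degrade the ligand were higher in the treated cultures. Of 28 listed genes 19 were tested; 13 rose and 1 fell, with a median of 3.23 (2.90 with low values raised). Rarb, a receptor gene that is itself a direct target, went from 3.15, 2.48 and 3.15 to 9.14, 8.54 and 9.39, at least 32.5-fold higher (log2 difference 6.10, SE 0.43, adjusted p = 1.06e-06). Rara was at least 118-fold higher, and Rxra, the partner receptor, rose 3.13-fold with its probe sets in agreement. Rarg was the member that fell: its probe sets agreed, the brighter going from 9.17, 8.82 and 9.19 to 5.33, 3.66 and 3.66, at least 24.5-fold lower, and the dimmer at least 1.41-fold.

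The binding proteins were bright on ES arrays already and rose further. Crabp1 went from 11.34, 11.88 and 10.11 to 15.04, 15.08 and 15.20 (16-fold) and Crabp2 from 9.18, 9.92 and 9.71 to 14.26, 14.47 and 14.51 (28.1-fold). Among enzymes, the retinoic acid hydroxylase gene Cyp26b1 rose from the floor to 11.64, 10.94 and 11.70. Cyp26a1, a second hydroxylase, was spread over 5.11, 3.01 and 7.09 on the ES arrays and reached 7.59, 8.14 and 9.16. Its rise was at least 7.45-fold, 4.59-fold without ES replicate 2 and at least 13.4-fold without ES replicate 3. The retinal reductase gene Dhrs3 was 12.7-fold higher and the retinol transport genes Rbp4 and Stra6 at least 8.97-fold and 2.71-fold. Aldh1a2, which makes retinoic acid, was near the floor in motor neuron cultures at 3.02, 2.17 and 2.17, against 3.02, 3.02 and 4.26. The Hox cofactor gene Meis2 rose in 3 of 4 probe sets, from 3.96 to 12.49, 2.53 to 7.99 and 2.59 to 11.97, and fell in the other, from 5.49 to 2.61. Only 1 of the 2 Meis1 probe sets was called, from 4.33 to 10.96.

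The promoters of Rarb and Cyp26a1 are shown because each holds a pair of direct repeats, the kind of element that retinoic acid receptors bind. These are the 100 bases upstream of each start, 5′ to 3′ along the gene (GRCm38.p6, RefSeq), with the match in capitals. Rarb lies on the minus strand at chr14:16575477-16575576, the match ending 36 bases before the start, and Cyp26a1 on the plus strand at chr19:37697708-37697807, 16 bases before it:
Rarb: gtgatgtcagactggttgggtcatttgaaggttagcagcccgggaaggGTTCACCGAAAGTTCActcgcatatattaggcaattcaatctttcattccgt
Cyp26a1: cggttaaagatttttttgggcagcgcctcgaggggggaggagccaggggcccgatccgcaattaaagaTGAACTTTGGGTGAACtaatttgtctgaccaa
The letters searched on both strands were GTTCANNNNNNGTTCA, and 24 of 27025 genes with a window held them (0.0888%). Of the 5 that were tested, Rarb and Cyp26a1 were called higher and Dmd lower. The match says nothing of binding in these cultures.

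**Figure D3:**
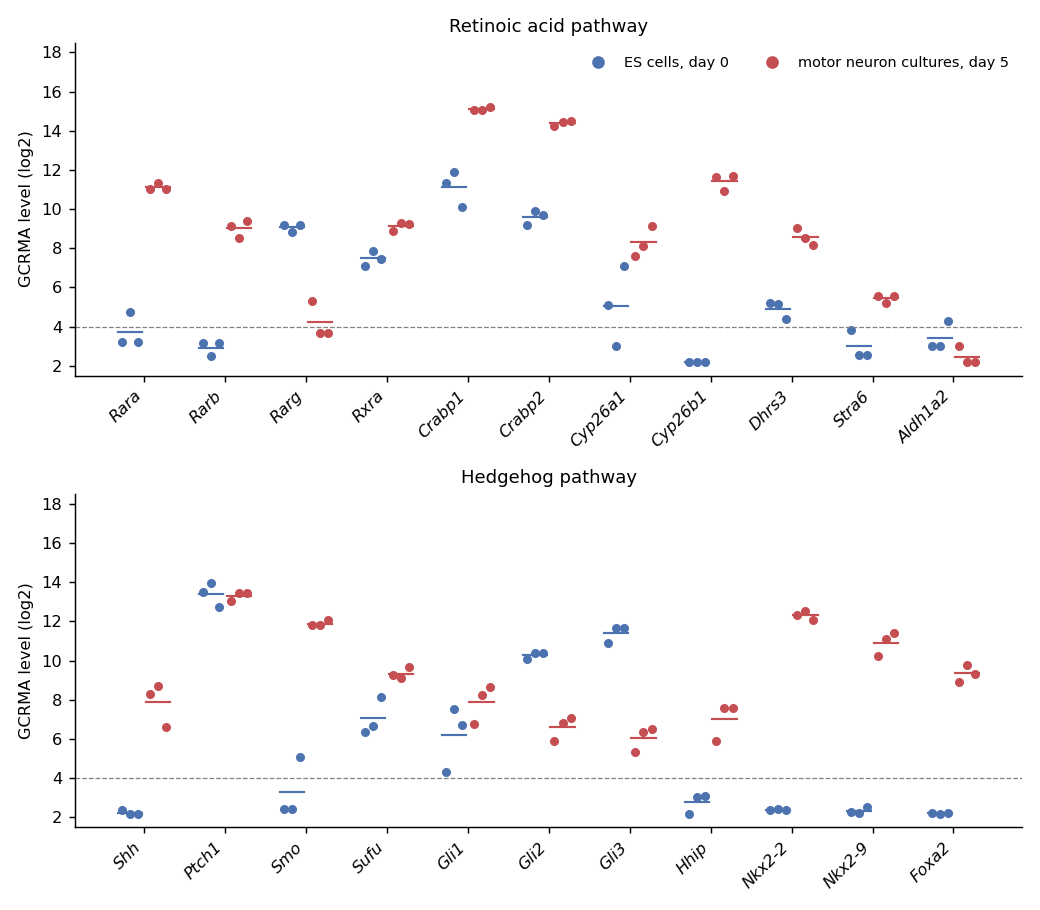
GCRMA level (log2, vertical axis) of retinoic acid pathway genes (upper panel) and hedgehog pathway genes (lower panel); dots are arrays, 3 per group, short lines are group means and the dashed line is the level of 4. Rarg, Gli2 and Gli3 lie lower in motor neuron cultures, while Rarb, Cyp26b1, Nkx2-2 and Nkx2-9 rise from under 4.

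In the hedgehog pathway the receptor protein Smo and the ventral homeobox genes rose, and 2 of the 3 Gli factors, Gli2 and Gli3, fell. Of 19 tested genes 9 rose and 3 fell (median 1.12). Smo, the receptor protein that the agonist acts on, had 2 agreeing probe sets; the brighter read 2.42, 2.42 and 5.09 and then 11.80, 11.80 and 12.05, at least 183-fold higher, and the other at least 7.11-fold. The negative regulator Sufu rose 4.85-fold in agreement. Gli2 went from 10.09, 10.36 and 10.40 to 5.90, 6.82 and 7.05, 12.9-fold lower and 3.29-fold in the weaker of its agreeing probe sets. Gli3, which acts mainly as a repressor, fell in 2 probe sets, from 11.40 to 6.07 and from 9.52 to 4.74, and rose in a dim one, from 2.18 to 3.40.

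The direct targets were mixed. Gli1 overlapped between groups (4.30, 7.50 and 6.73 against 6.75, 8.26 and 8.66; adjusted p = 0.0673) and was called higher under several alternatives. The brighter Ptch1 probe set was level, at 13.39 and 13.30 on average, and the other rose from 2.56 to 10.13. Hhip, an antagonist, rose in 2 of 4 probe sets, by at least 8.11-fold in the brightest. Nkx2-2 and Nkx2-9, homeobox genes of the most ventral progenitors, were at least 316-fold and 121-fold higher, and the floor plate genes Foxa2 and Shh at least 40.5-fold and 14.6-fold (Shh at least 22.5-fold without motor neuron replicate 3, which read 6.62). The letters of a Gli site, TGGGTGGTC, were searched on both strands in the same windows and found in 78 of 27025 genes (0.289%), none of them among the 15 hedgehog list genes with a window.

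Ventral progenitor factors were higher in 11 of 12 tested genes (91.7%), against 25.9% of all genes. The median difference was 5.33 (4.64 with low values raised). On the ES arrays the median level of this list was 3.38, 3.50 and 3.45. Genes under 4 there passed the filter through other arrays, which favours rises. Nkx6-1, which marks the motor neuron domain, went from 3.66, 3.51 and 2.55 to 11.93, 12.11 and 12.09, at least 264-fold higher. Olig2, the motor neuron progenitor factor, was on already in ES cells by this array, at 8.82, 7.94 and 8.41, and rose 15.1-fold to 12.24, 12.25 and 12.42 (adjusted p = 1.33e-07). Olig1 rose 5.21-fold. Irx3 and Irx5 were 25.9-fold and at least 24.1-fold higher. Pax6 varied across the ES arrays (3.40, 5.53 and 8.56), overlapped the motor neuron arrays (8.28, 8.45 and 9.14) and was called higher (at least 6.03-fold). That call ended under several alternatives, among them a fit of only the 6 arrays compared. The fold was 2.99 without ES replicate 1 and at least 14.5 without ES replicate 3. Of the list, Nkx6-2 was not called (6.46 to 6.60 against 6.60 to 6.83).

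Motor neuron identity factors rose in 14 of 19 tested genes and fell in 2, with a median of 3.90; 6 of the 9 with several tested probe sets agreed upwards. Lhx3, the LIM factor that acts with Isl1, left the floor for 9.43, 8.69 and 8.66, at least 30.4-fold higher (log2 difference 6.76, SE 0.27, adjusted p = 2.6e-08). Its relative Lhx4 was at least 101-fold higher, with at least 25-fold in the weaker of 2 agreeing probe sets. Mnx1 (HB9) rose from 2.94, 2.55 and 2.17 to 10.64, 10.04 and 9.36. The groups were well apart for these 3. Neurog2, the proneural factor of this domain, was at least 174-fold higher, and Ldb1, which joins LIM factors, 7.75-fold.

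Other agreeing members of the list were Ebf3 (at least 161-fold), Onecut1 (at least 62.2-fold), Onecut2 (at least 41.3-fold) and Ebf2 (at least 5.3-fold), factors of early postmitotic neurons. The Onecut genes are of newborn motor neurons and interneurons. Lhx1, a factor of lateral motor column neurons, rose from 2.18 to 6.87, 5.74 and 5.61. Phox2a, known from cranial motor neurons, was 3.02-fold higher. Pou3f1, which ES cells and the epiblast share with some motor neurons, fell 5.16-fold from 12.15, 11.15 and 11.98. Foxp1 was lower by its brightest probe set (2.02-fold); of its 6 probe sets 4 were called lower and 1 higher, and the call of the brightest ended under several alternatives.

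Not all markers of mature motor neurons were on. In the list of cholinergic and motor axon genes 10 of 13 tested genes were higher and 1 lower (median 3.25), of 21 listed. Slc18a3, which loads acetylcholine into vesicles, went from the floor to 11.29, 11.37 and 10.65, at least 138-fold higher. Chat, the acetylcholine-making enzyme, and Slc5a7, the choline transporter, lay at the floor on all 6 arrays and were not tested. Isl2 read 6.09, 6.10 and 3.37 in motor neuron cultures and the floor in ES cells, too dim for the test, and the groups overlapped for the neuronal filament gene Prph (5.39, 3.39 and 7.80 against 9.93, 9.21 and 7.11). Prph was called higher (at least 8.09-fold), from 4.44-fold to at least 16.6-fold on leaving out 1 array. That call ended with no filter on low values and without ES replicate 2, motor neuron replicate 1 or motor neuron replicate 2. The nicotinic receptor genes Chrna3 and Chrnb4 were at least 174-fold and 52.5-fold higher, and the GDNF receptor genes Gfra1 and Ret at least 31.6-fold and by 19.9-fold, all 4 with agreeing probe sets.

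**Figure D4:**
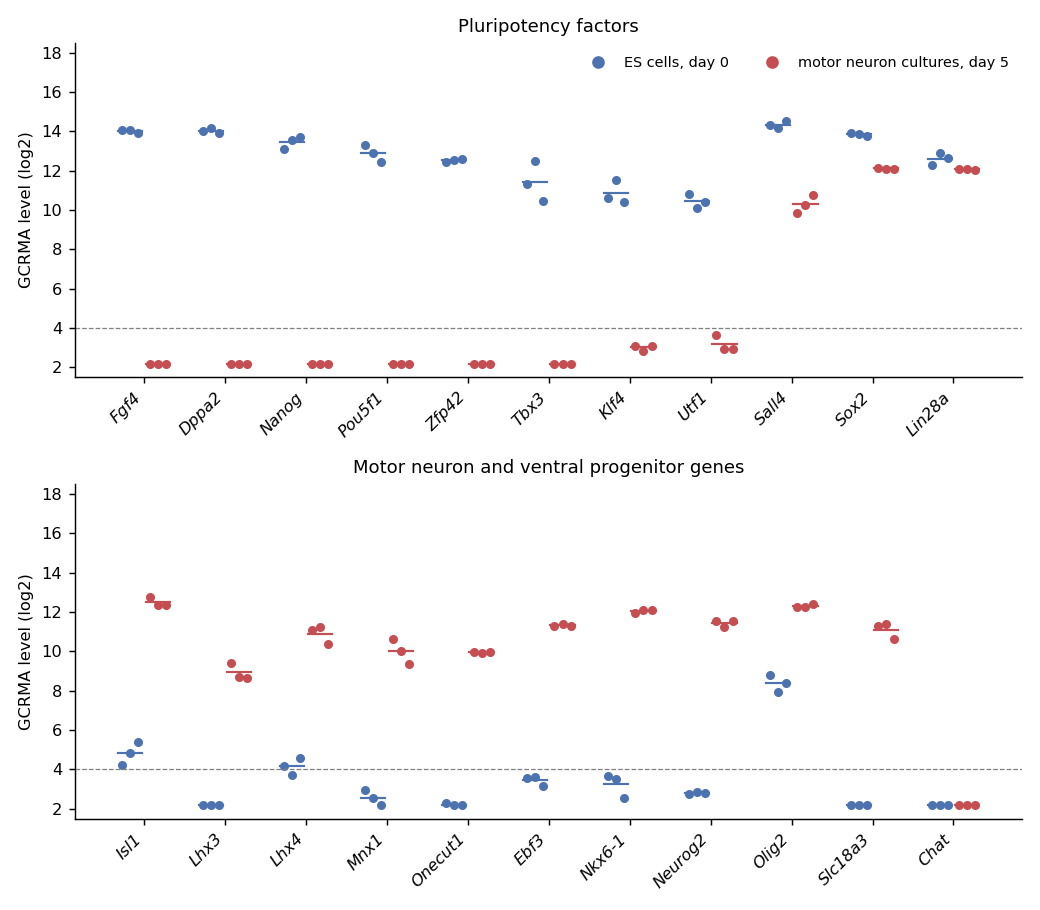
GCRMA level (log2, vertical axis) of pluripotency factors (upper panel) and of motor neuron and ventral progenitor genes (lower panel); dots are arrays, 3 per group, short lines are group means and the dashed line is the level of 4. Nanog and Pou5f1 drop to the floor of 2.17, Sox2 falls from 13.75 or more to 12.09 or more, and Chat stays at the floor in both groups.

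Proneural and neuronal transcription factors rose in 18 of 27 tested genes and fell in 3, with a median of 3.36. Of 18 with several tested probe sets, 13 were agreeing genes that rose and 0 were agreeing genes that fell, against 16.2% and 10.7% of all such genes. Neurog1 went from 4.05, 2.48 and 5.60 to 11.51, 11.52 and 11.75, at least 132-fold higher and at least 23.6-fold in its weaker probe set. St18, a zinc finger factor of differentiating neurons, was at least 131-fold higher and the neuronal repressor Scrt2 at least 81-fold, both in agreement. Pou2f2 and Tshz2 were at least 14.7-fold and 16.8-fold higher, but at least 1.87-fold and 1.73-fold in their weakest probe sets. Pou4f1 (Brn3a), a factor of sensory neurons, fell from 7.04, 8.55 and 7.48 to 6.38, 4.85 and 4.24, 5.8-fold, or 8.86-fold without motor neuron replicate 1.

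Notch genes moved in both directions. In all 13 of 23 tested genes rose and 5 fell (median 1.26). Beside Hes5, the modulators Lfng and Nrarp were 67.4-fold and 17.3-fold higher in agreement (Nrarp 10.4-fold without ES replicate 3), and the receptor gene Notch1 2.99-fold. Hes6, which favours neurogenesis, rose 2.85-fold in agreement. Rbpj, the DNA-binding partner of Notch, fell in 3 of 3 probe sets, from 12.98, 13.38 and 13.05 to 10.80, 11.14 and 11.09 in the brightest (4.37-fold). The ligand gene Jag1 fell by its brightest probe set, from 12.03 to 7.82 on average; another rose from 2.17 to 4.57.

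Neural progenitor genes were on alongside these neuronal factors. Of 29 tested genes 21 were higher and 6 lower (median 2.70), with 12 agreeing genes higher and 1 lower. The POU factor genes Pou3f2 and Pou3f3 were at least 296-fold and 386-fold higher; their weakest probe sets gave at least 24.3-fold and 1.65-fold. Sox9, of progenitors and glia, went from 3.20, 3.38 and 2.17 to 10.63, 10.79 and 9.72. Meteorin (Metrn) was 30.4-fold higher and the membrane protein gene Gpm6b 20.9-fold, both in agreement. Sox21 rose 24-fold in agreement, or 12-fold without ES replicate 1 and 40.2-fold without ES replicate 3. The zinc finger genes Zic5, as above, and Zic2 fell, the latter from 10.36, 8.90 and 10.83 to 2.17, 2.21 and 2.42.

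The neuronal cytoskeleton was among the lists with most rises: 27 of 35 tested genes rose and 2 fell (median 3.44). The microtubule-associated protein genes Map2 and Map1b rose from 8.01, 7.94 and 8.63 to 12.79, 12.67 and 12.23 (20.7-fold) and from 8.82, 9.45 and 8.48 to 13.15, 13.11 and 13.17 (18.7-fold), each with 3 probe sets in agreement. All 8 tested probe sets of Dclk1, a doublecortin-like kinase, rose, the brightest by 20.3-fold and the weakest by 2.84-fold. The neurofilament gene Nefl began at 10.04, 9.52 and 11.09 and reached 14.17, 14.03 and 13.86, 13.9-fold higher in agreement. The stathmin relative Stmn3 was 10.8-fold higher in agreement. Dpysl4, a collapsin response mediator, was at least 248-fold higher, or 447-fold without ES replicate 3.

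The ES levels of Nefl, a marker of neurons, were high for cells labelled undifferentiated. So were those of Stmn2 (13.37, 13.09 and 12.75, against 14.07, 13.99 and 13.58 at day 5, not called), Ina (11.93, 10.76 and 12.20) and Elavl2 (11.46, 11.33 and 11.64). These 3 genes were picked after their values were seen. The heavy neurofilament gene Nefh fell, from 10.35, 8.11 and 9.57 to 2.45, 2.34 and 2.40, at least 40.6-fold, or at least 62.3-fold without ES replicate 2. For Rufy3, an axon formation gene, the brightest probe set fell from 12.02 to 10.34, while the other 4 rose, from between 2.37 and 3.91 to between 10.36 and 12.26.

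Axon guidance genes were higher in 29 of 40 tested cases and lower in 3 (median 2.94), and 14 of the 28 with several tested probe sets agreed upwards. Contactin 2 (Cntn2), an adhesion protein of commissural and motor axons, rose in 4 of 4 probe sets, from 4.92, 4.85 and 4.92 to 12.83, 12.66 and 12.75 in the brightest (231-fold). The repellent gene Slit1 was at least 53.6-fold higher, and the semaphorin receptor gene Plxna2 at least 36.3-fold and the semaphorin gene Sema6a 23.5-fold, all in agreement. Neurofascin (Nfasc) rose 13.8-fold in agreement. Sema3e ran against the list, lower in 4 of 4 probe sets, from 9.88, 10.32 and 11.04 to 2.59, 3.65 and 5.46 in the brightest. Robo1, a Slit receptor gene, fell 4.64-fold.

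Genes of vesicle release rose in 20 of 28 tested cases and fell in 0, with a median of 1.81. Snap25, of the fusion machinery, went from 8.12, 6.98 and 7.79 to 12.24, 11.56 and 11.09, 16-fold higher in agreement, and the complexin gene Cplx2 was at least 12.6-fold higher over 3 agreeing probe sets. The granule protein genes Scg3 and Chgb rose by at least 163-fold and 103-fold. Receptors and channels were mostly dim: 16 of 44 listed genes could be tested, and 7 rose and 4 fell (median 0.51). The calcium channel gene Cacna1b, which serves transmitter release, was at least 27.2-fold higher in agreement and the potassium channel gene Kcnh2 at least 127-fold. Kcnk1, a leak channel gene, fell at least 115-fold with its probe sets in agreement.

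Regulators of neural splicing changed with them. In the RNA-binding list 16 of 30 tested genes were higher and 7 lower (median 1.36), with 9 agreeing genes higher and 1 lower. Srrm4, which includes neural microexons, went from 3.08, 3.16 and 2.85 to 8.98, 9.38 and 9.47, at least 38.8-fold higher over 3 agreeing probe sets. The splicing factor genes Rbfox1 and Rbfox3 (NeuN) were at least 42.8-fold and 22.8-fold higher and Msi1, an RNA-binding protein of neural stem cells, 6.5-fold, all in agreement. Trim71, a let-7 target of ES cells, fell 7.68-fold and its probe sets agreed. The epithelial splicing factor Esrp1 fell to the floor, as given above.

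Rest, the repressor that keeps neuronal genes silent in other cells, fell in 3 of 3 probe sets. Its brightest went from 14.36, 14.48 and 14.43 to 9.82, 10.16 and 10.28, 20.2-fold lower (log2 difference -4.34, SE 0.12, adjusted p = 4.24e-09), and the weakest by 4.92-fold. Of 12 tested genes of REST and its corepressors 3 rose and 2 fell, which is no more than the 25.9% and 30.7% of all genes. Hdac2 was 4.58-fold higher in agreement and Rcor2 2.6-fold higher. The start of Lhx3 is shown because it carries the letters of the element that REST binds (RE1), in capitals in the 100 bases upstream on the minus strand at chr2:26208250-26208349 (GRCm38.p6, RefSeq), 26 bases before the start:
Lhx3: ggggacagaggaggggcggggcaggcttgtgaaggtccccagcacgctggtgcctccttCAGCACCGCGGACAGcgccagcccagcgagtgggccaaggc
The letters CAGCACCNNGGACAG were found on either strand in 11 of 27025 genes (0.0407%). Of the 4 tested, Lhx3, Osbp2 and Ttc9b were called higher and 0 lower. A match of letters is not a measured site, and REST binding was not measured here.

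BAF complexes, the ATP-driven remodellers that exchange subunits as neural cells form, had 11 of 25 tested genes higher and 3 lower (median 0.94). Bcl7a went from 7.08, 7.98 and 7.86 to 11.06, 10.81 and 10.79, 9.46-fold higher, and Smarce1 (BAF57) from 11.55, 11.31 and 11.01 to 13.53, 13.63 and 13.56, 4.86-fold higher, both in agreement. Smarcc2 (BAF170) rose 18.7-fold, from 6.51, 7.12 and 6.58, and Smarcd3 (BAF60C) at least 15-fold, each by its only tested probe set. The ATPase gene Smarca2 (Brm) was 9.62-fold higher, 17.2-fold without ES replicate 2 and 5.68-fold without ES replicate 3. Smarca4 (Brg1) rose 2.12-fold in agreement, and its call ended without ES replicate 2. Bcl7b and Smarcd1 were 3.22-fold and 2.87-fold higher.

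The members that fell were Smarcd2 (BAF60B), 2.97-fold with 3 probe sets in agreement, Arid2 and Bcl11b. Arid2 had probe sets of both kinds: from 13.05 to 11.27 and 10.02 to 8.65, but from 10.35 to 11.49 and 2.74 to 10.18. Averaged, the 4 rose by 1.36 on the log2 scale. Bcl11b overlapped between groups and lost its call under several alternatives. Smarcb1 and Smarcc1 were called higher by the brightest probe set (2.9-fold and 2.87-fold) but not by their others, and Ss18l1 (CREST), a neuronal subunit, rose 2.36-fold, a call that ended without ES replicate 3. Actl6a, the progenitor form of the actin-like subunit, was lower by 0.95 in its brightest probe set, short of a call, and by 1.88 and 1.84 in the other two, which were called. Its neuronal counterpart Actl6b was too dim to be tested.

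**Figure D5:**
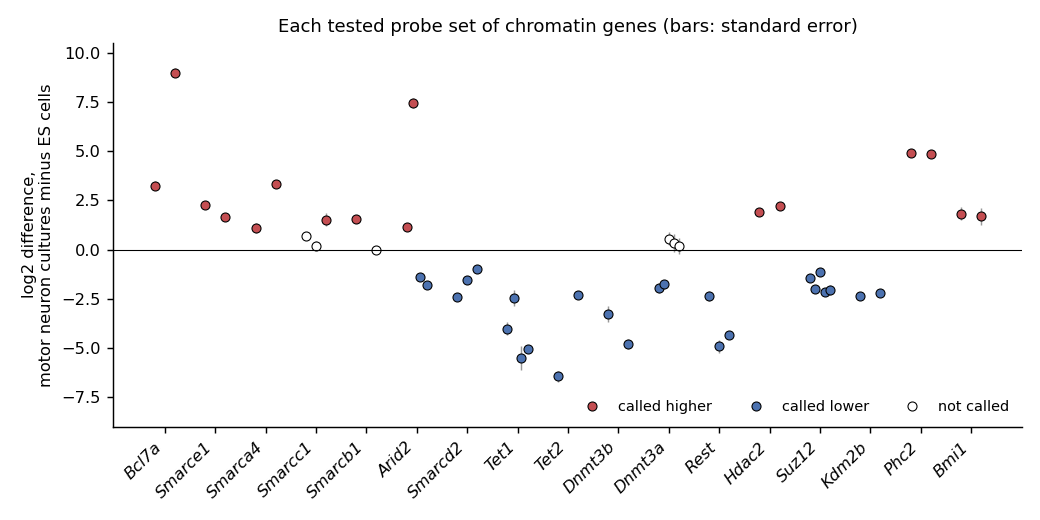
Log2 difference between motor neuron cultures and ES cells (vertical axis; bars are standard errors) for every tested probe set of 17 chromatin genes, filled where called. The probe sets of Tet1, Rest and Suz12 all lie below 0 and those of Smarce1 and Hdac2 all above, while those of Arid2 lie on both sides.

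DNA methylation enzymes of ES cells fell. Of 15 tested genes 10 fell and 3 rose (median -1.82). Tet1, which oxidises methylcytosine, was lower in 4 of 4 probe sets, the brightest going from 13.23, 13.28 and 12.93 to 7.86, 8.49 and 7.95, 33.1-fold. The de novo methyltransferase gene Dnmt3b fell 27.4-fold in agreement and its cofactor gene Dnmt3l from 12.56, 11.97 and 12.11 to the floor. Tet2 fell 4.88-fold in agreement, while Tet3 rose from 3.88, 3.81 and 3.18 to 8.68, 8.93 and 8.80, at least 27.9-fold. In Dnmt3a 2 of 5 probe sets were called lower, from 10.93 to 8.95 and from 13.78 to 12.02, and the other 3 were not called.

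Polycomb genes, which keep developmental genes repressed through histone H3 methylation, were lower in 13 of 30 tested cases and higher in 5 (median -0.79). Suz12, a core subunit of the methylating complex, fell in 5 of 5 probe sets, from 13.82, 13.78 and 13.71 to 11.71, 11.73 and 11.80 in the brightest (4.06-fold). Kdm2b, which brings a second complex to CpG islands, was 5.19-fold lower in agreement. Within that second complex Phc2 rose 29.3-fold and Bmi1 3.52-fold, both in agreement, and Pcgf5 fell 2.72-fold. Cbx8 was at least 3.03-fold higher in agreement.

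Hox genes, targets of both retinoic acid and Polycomb, rose mostly towards the anterior end of the clusters. Of 39 genes 22 were tested. Of these 13 (59.1%) were higher and 4 (18.2%) lower, against 25.9% and 30.7% of all genes (median 5.84). On the ES arrays the list's median level was 2.63, 3.32 and 2.77. Genes under 4 there passed the filter through other arrays, which favours rises. Those that rose were of paralogue groups 2 to 6, and Hoxd8, whose 2 probe sets were called in opposite directions and whose call (at least 1.85-fold) ended with values under 4 raised to 4 and with array weights. Agreement was seen for 6 of the 9 with several tested probe sets, among them Hoxb4, which went from 2.33 or less to 12.95, 12.72 and 13.05 (at least 53.1-fold in its weaker probe set), Hoxc5 (at least 69-fold in the weakest of 3) and Hoxa4 (22.9-fold). For Hoxa3 the brightest probe set gave at least 389-fold and the weakest at least 5.21-fold. The 4 that fell were more posterior: Hoxc8, Hoxd9, Hoxc13 and Hoxd13, each by 1 probe set, from between 4.01 and 8.42 on the ES arrays to 2.59 or less. Hoxd13 lost its call with values under 4 raised to 4.

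Brain factors gave little signal. Of 22 forebrain, midbrain and hindbrain factors 4 could be tested and all 4 fell. Among them were Otx2, from 11.16, 9.44 and 8.99 to the floor (at least 58.2-fold, or at least 37.2-fold without ES replicate 1), and Hesx1 (at least 23-fold). Both are also used by ES cells and the epiblast. The list's median level was 2.17 on each motor neuron array. Members at the floor there could only be called lower, so the count was partly fixed by the filter. Of 33 interneuron and dorsal spinal cord factors 4 were tested, with 0 higher and 2 lower. Gad1, an enzyme of GABA neurons, went from 5.02, 5.10 and 5.20 to the floor.

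Wnt genes were higher in 9 of 25 tested cases (36%) and lower in 3 (12%), against 25.9% and 30.7% of all genes. Their median difference was 0.00. Receptor genes led both ways: Fzd3, needed for axon tracts, rose in 6 of 6 probe sets, the brightest from 6.96, 7.85 and 7.84 to 12.54, 12.67 and 12.79 (34.7-fold), and Fzd2 rose 2.58-fold in agreement, while Fzd5 fell at least 91.6-fold, from 10.55, 10.69 and 10.84 to 4.34 or less. The target Axin2 was 2.12-fold higher in agreement, a call lost under several alternatives.

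Of 48 tested cell cycle genes 9 (18.8%) rose and 14 (29.2%) fell, against 25.9% and 30.7% of all genes. The median was -0.09, close to the -0.08 of all genes. Replication genes among the agreeing ones fell a little: Top2a by 2.65-fold, from 13.46, 13.40 and 13.31 to 11.69, 12.09 and 12.18, Mcm4 by 2.38-fold and Cdt1 by 2.12-fold. These 3 lost their calls with arrays centred on their median over all probe sets, and Cdt1 also without ES replicate 3 or motor neuron replicate 1. The cyclin gene Ccnd2 rose in 7 of 7 probe sets, from 7.42, 10.25 and 10.32 to 12.22, 12.41 and 13.03 (9.35-fold, or 4.83-fold without ES replicate 1). Btg2, an antiproliferative gene of neuron-making divisions, was 3.45-fold higher in agreement. In the apoptosis and p53 list 10 of 24 tested genes were lower and 3 higher (median -0.78): the death genes Perp and Pmaip1 (Noxa) fell at least 452-fold and 104-fold and Bid 20.9-fold, each by 1 probe set, and the survival gene Bcl2 rose 24.8-fold in 1 of 2.

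In the one-carbon, threonine and lipid list 9 of 21 tested genes (42.9%) fell and 1 (4.76%) rose, against 30.7% and 25.9% of all genes (median -0.35). Mthfd1, of the folate cycle, went from 14.07, 14.11 and 14.13 to 10.14, 10.84 and 10.80 (11.4-fold in agreement), the transsulfuration genes Cbs and Cth were at least 48.9-fold and 227-fold lower, and Sqle, of cholesterol synthesis, was 4.53-fold higher. Glycolysis genes had 8 of 26 lower (30.8%, near the share of all genes) and 5 higher (19.2%), with a median of -0.05: the platelet phosphofructokinase gene Pfkp was 79.1-fold lower by its brightest probe set, but 1.04-fold or more by its weakest, and the liver form Pfkl 4.04-fold higher, each in agreement, and Hk2 fell 5.77-fold. Imprinted genes had 6 of 22 higher (27.3%) and 7 lower (31.8%), both near the shares of all genes (median -0.05). Dlk1 was at least 64.1-fold and Ndn 7.39-fold higher, Ndn in 5 of 5 probe sets, and Impact 5.48-fold lower in agreement. Ribosomal protein genes were nearly all without a call: 0 of 22 were higher and 1, Rps6, lower (4.6-fold), with a median of 0.18. Of 49 histone genes of S phase, which give mRNAs with no poly(A) tail, 5 were tested, with 4 higher and 1 lower (median 3.06).

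Markers of other cell types were mostly dim or lower in motor neuron cultures. Fibroblast genes fell in 11 of 15 tested cases and rose in 0 (median -4.36), and their summed picture differed among ES arrays: the list's median level was 6.56, 8.62 and 9.10 on them and 2.87, 2.87 and 3.85 on the motor neuron arrays. Fibronectin (Fn1) went from 12.29, 12.53 and 12.79 to 8.04, 8.35 and 8.14 and Mmp2 from 8.56, 8.17 and 9.10 to the floor, both in agreement; Col1a1 read 10.15, 10.45 and 12.68 and then the floor. The ES cells were grown on fibroblasts, whose part in these ES levels, and in those of other genes that fell, was not tested. In bulk cultures, fewer cells of a type and less RNA per cell cannot be told apart. Mesoderm, muscle and blood markers were lower in 4 of 7 tested genes (57.1%) and higher in 0. Tek fell at least 41.8-fold. Trophoblast markers were lower in 3 of 5 (60%), among them Tfap2c (55.9-fold in 3 agreeing probe sets). Of all genes 30.7% were lower and 25.9% higher. The median level on each motor neuron array was 2.19 for the mesoderm, muscle and blood list and 2.17 for the trophoblast list. Genes under 4 there, as among the fibroblast genes, passed the filter through other arrays, which favours falls.

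Endoderm markers rose in 3 of 9 tested genes (33.3%) and fell in 2 (22.2%), against 25.9% and 30.7% of all genes. Of the 3, the chemokine receptor gene Cxcr4, which migrating neurons also use, went from 9.05, 8.88 and 9.22 to 13.87, 13.74 and 13.68 (26.3-fold), while Gata6 and Ttr stayed at 5.13 or less and lost their calls with values under 4 raised to 4. Sox17 and Afp were too dim to be tested. Glial markers rose in 4 of 7 and fell in 1: Mbp was 11.4-fold higher in agreement, or 20.3-fold without ES replicate 3, and Slc1a2 at least 7.74-fold, or 4.12-fold without ES replicate 2 and at least 12.5-fold without ES replicate 1. Gfap, Aqp4 and Sox10 were too dim to be tested. Neural crest markers fell in 6 of 8 and rose in 2: Ednrb, also of neural progenitors, rose at least 208-fold over 3 agreeing probe sets, and Erbb3 and Mitf fell at least 112-fold and 80.8-fold. The neural crest list's median level on the motor neuron arrays was 3.47, 3.40 and 3.70. Genes under 4 there passed the filter through other arrays, which favours falls.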

How the data were processed

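Expression was measured on Affymetrix mouse arrays; the log2 levels used here were deposited by the authors as the series' value table, made with GCRMA per the submitters' processing notes, with no version given. That the scale is log2 was judged from the numbers. Per the labels' protocols, RNA was amplified with the NuGEN Ovation kit. Genes were named through the platform's annotation: 34958 probe sets had 1 symbol, 932 several and 9211 none.

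Here, probe sets above 4 on at least 3 of the 9 arrays were fitted over all 3 groups with limma 3.58.1 (R 4.3.3; lmFit, eBayes with trend), and p-values were adjusted by Benjamini-Hochberg over all genes tested, with 6 residual degrees of freedom before moderation. A gene took its probe set of highest mean. Calls needed an adjusted p under 0.05 and a log2 difference of 1 or more. The number of arrays limits the precision. Scripts were tested on simulated data.

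Members and lists (42, with 1130 genes, of which 764 were tested) were chosen with earlier results of these data known. Named were the 12 agreeing genes that moved furthest each way, up to 8 members of each list, up to 4 called against their list's majority, and called members of 6 lists; members without a call and genes said to be picked afterwards were added for contrast. Of the 12 higher genes 1 is not reported here, and of the 12 lower 1 known by a clone-style symbol was counted but not named. Replicate numbers did not pair the arrays: deviations of same-numbered ES and motor neuron arrays correlated at 0.00, 0.02 and 0.03. Promoter windows came from RefSeq (GRCm38.p6).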

Additional observations from a re-analysis of the deposited data

How the results depend on the processing

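Counts of genes called higher and lower stayed within 1.5 times under the normalization, filter, model and array-weight alternatives that were run. Leaving out 1 array in turn gave 2701 to 2860 higher, 3192 to 3365 lower, 788 to 835 agreeing higher, 504 to 546 agreeing lower and 737 to 798 called both ways. With only the 6 arrays compared in the fit, 2722 genes were higher and 3266 lower. Counting probe sets in place of genes gave 6396 higher and 5314 lower. Agreement was the more sensitive measure: 556 higher and 366 lower genes with no filter on low values, 444 and 290 from a log2 difference of 2, and 327 lower without x_at, s_at and a_at probe sets. With the replicate number as a block, though the numbers are not stated to pair the arrays, 2826 genes were higher and 3345 lower. Centring over tested probe sets (2657 and 3538) was chosen after seeing the data. Results of the gene lists were less stable. With arrays centred on their median over all probe sets 40 list results moved and 86 did not. The mean of tested probe sets gave 39 and 87. Both no filter on low values and leaving out x_at, s_at and a_at probe sets gave 26 and 100. Under each other alternative 15 or fewer moved.

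The sign of the difference turned where a gene's probe sets differ, and both alternatives use other probe sets by construction. The mean of tested probe sets gave log2 differences of 1.36 for Arid2, 0.74 for H1f2, -0.08 for Hoxd8, 2.43 for Il6st, 0.19 for Mdm2, 3.74 for Ptch1, 0.21 for Rcor3, -1.47 for Rps9, 6.35 for Rufy3, 1.21 for Tfrc and 0.12 for Trp53inp1. Without x_at, s_at and a_at probe sets H1f2 came to 6.87, Mdm2 to 0.28, Meis1 to -1.09, Meis2 to -2.88 and Rps9 to -2.03. Not all of these are changes of direction. In limma the turned values of Hoxd8, Mdm2, Meis1, Rcor3 and Trp53inp1 had adjusted p of 0.165 or more. Levels under 4 carry no order, so folds from them are lower bounds.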

Other observations

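Probe sets without a gene symbol behaved otherwise than named ones. Among 1429 of them that were tested, 24.5% rose and 41.8% fell between ES cells and day 5, against 32.7% and 27.2% of 19544 probe sets with 1 symbol. The difference between these shares was not tested.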
